A study of Mus musculus with 6 samples.

Results

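Centrins are small calcium-binding proteins held in the lumen of the centriole, the barrel that becomes the basal body of every cilium. Centriolar satellites are granules around the centrosome, built on the scaffold protein PCM1, that carry and hold proteins on their way to centrioles and cilia. A multiciliated ependymal cell, which lines the brain ventricles and moves cerebrospinal fluid, makes many centrioles at once and docks each as a basal body, so it draws on both. The genes described here are 3 centrins (Cetn2, Cetn3 and Cetn4), 2 genes of centrin-binding proteins (Sfi1 and Poc5) and 4 genes of satellite proteins (Pcm1, Ofd1, Cep131 and Ccdc13). They were chosen by gene symbol, and all 9 were found among the 22851 rows of the count table. All 9 also passed the filter on low counts, as did 14243 rows in all.

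The cells were radial glia from the brains of newborn C57BL/6J mice, grown in serum and then kept for 6 days without serum to differentiate. Of the 6 libraries, 3 were wild type (WT) and 3 came from mice in which Edf1 had been disrupted with CRISPR/Cas9, which are called knockout here. Edf1 encodes a transcriptional coactivator that also binds collided ribosomes. The design names the replicates biological, but nothing says which animals or cultures they came from, nor how many knockout founders were used, so p-values measure the spread between these libraries, which may be partly technical. Total counts were 13071766 to 28087006 per library. Edf1 itself fell from 82.9 ± 2.85 to 11.3 ± 1.72 CPM (read counts scaled to a common library total; mean ± SD, n = 3 each), and each knockout library lay below each WT library. Of the 13 marker genes of multiciliated ependymal cells, all were counted in these libraries, with Foxj1 at 788 ± 43.4 CPM in WT, so the labelled cell type had its defining transcripts.

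Of the 9 genes, 7 were lower in the knockout, 1 was higher and 1 did not pass the test. The test was edgeR's quasi-likelihood test over all tested genes with a Benjamini-Hochberg adjusted p-value under 0.05, by which 14.2% of all tested genes were lower and 12.7% higher. The CPM values of the genotypes did not overlap for 8 of the 9, against 43.3% of all tested genes. The median log2 fold change of the 9 genes was -0.40, with a range from -0.75 for Poc5 to 0.23 for Sfi1. The median of all tested genes was 0.0029. In RNA from a whole culture, fewer cells of a type and less RNA in each cell cannot be told apart.

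The promoters of 4 of these genes hold a motif of transcription factors that control ciliary genes. RFX transcription factors act with FOXJ1 on ciliary genes through a sequence called the X-box, and its core was searched as GTTGCC or GTTGCT on both strands. RefSeq promoters on GRCm38.p6, from 250 bases before to 50 bases after the start of the gene, were held for 7 of the 9 genes: Cetn2, Cetn3, Cetn4, Poc5, Ofd1, Cep131 and Ccdc13. The core was found in 4 of the 7, each time once, and in 25.1% of 32851 promoters of the same length. The 4 matches are shown with 12 bases on either side because they lie close to the RefSeq start, with the core in capitals, read along the strand of the gene, so that the core of Cetn4 appears as its reverse complement:
Cetn2 (chrX:72918335-72918364, minus strand): tgcgagtacgccGTTGCCttaacaaccggt
Cetn4 (chr3:37312427-37312456, minus strand): gagcgctgctatAGCAACcgcctgtcggga
Cep131 (chr11:120086792-120086821, minus strand): ggcaccaggctgGTTGCTagccgccgccgc
Ccdc13 (chr9:121839477-121839506, minus strand): tccctggtgacgGTTGCCaaggcagcacat
Distances are from the RefSeq start, which for Cetn2 and Cetn4 lies inside the GENCODE gene whose ends are given with the values. The core began 8 bases before the start in Cetn2 and 33 bases before it in Ccdc13. It began 2 bases after the first base of the RefSeq entry in Cetn4 and 18 bases after it in Cep131. None of the 4 matches overlapped a match to the other motifs searched. Those were the CCAAT box (CCAAT), found in 5 of the 7 promoters and 37.4% of all, the forkhead core TGTTTAC, found in 0 of the 7 and 3.65% of all, and the E2F core GCGGGAA, found in 0 of the 7 and 4.6% of all. A match describes letters in this window and shows no binding.

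The centrin genes were examined first, with positions on GRCm38. Cetn2 (chrX:72913532-72918411, minus strand), which encodes a centrin of centrioles and basal bodies, had 250, 278 and 261 CPM in WT replicates 1, 2 and 3. It had 188, 188 and 186 CPM in the knockout replicates, which were nearly alike and all below WT. The log2 fold change was -0.49 with SE 0.051 (edgeR, adjusted p = 1.91e-05), a fall of 28.9%.

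Cetn4 (chr3:37307749-37312708, minus strand) encodes the centrin known from ciliated cells of the mouse. Its 3 WT values were 108, 127 and 116 CPM. In the knockout it had 80.8, 79.6 and 84.8 CPM, all below WT. The log2 fold change of -0.51 with SE 0.065 (edgeR, adjusted p = 9.36e-05) was close in size to that of Cetn2. Of the 31-base words in the transcripts of Cetn4, 8.31% also occur in transcripts of other genes. Both kept their direction and passed the threshold in each of the 15 alternative settings.

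Cetn3 (chr13:81783077-81797155, plus strand) encodes a more distant centrin. Its levels were 164, 186 and 162 CPM in WT, against 154, 142 and 154 CPM without Edf1. The genotypes did not overlap, but the nearest values, 162 and 154 CPM, lay close together. The log2 fold change was -0.19 with SE 0.062 (edgeR, adjusted p = 0.0414). The gene no longer passed without WT replicate 1 or without any 1 of the knockout replicates (adjusted p-values 0.0546 to 0.172 by edgeR), and with scaling by library size alone (-0.17, adjusted p-value 0.0503).

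**Figure D1:**
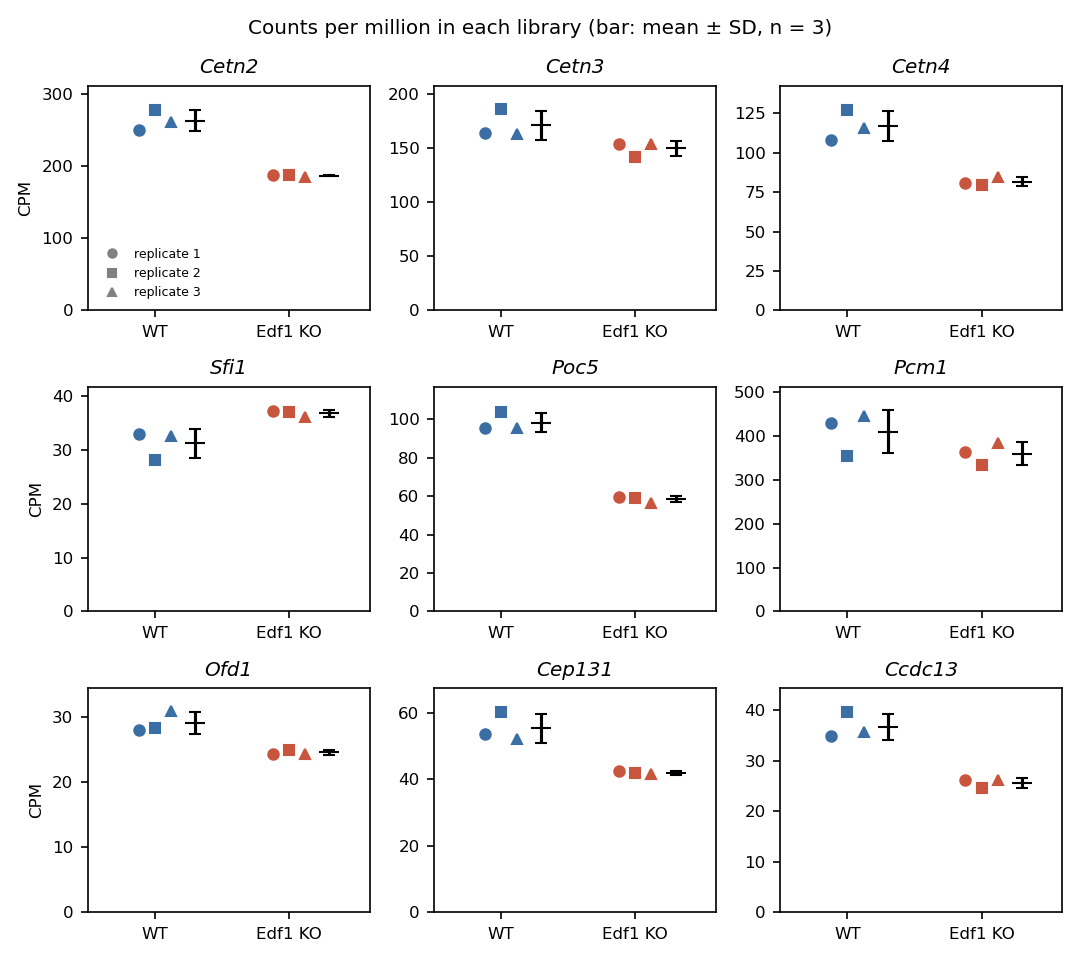
CPM on the vertical axis, from 0, for the 9 genes in each WT (blue) and Edf1 knockout (red) library, with the mean and SD of 3 libraries in black. The knockout points lie below the WT points for 7 genes, and above them for Sfi1, while for Pcm1 the groups overlap through WT replicate 2.

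The proportions of the centrins were described next, with no test of the shares themselves. Levels of different genes were compared as CPM per kilobase of the longest annotated protein-coding transcript. On that scale Cetn2 made up 53.3%, 52.7% and 54.2% of the sum of the 3 centrins in WT, against 48.9%, 50.6% and 48.4% in the knockout. The share of Cetn3 was 36.4% ± 0.83 in WT and 41.4% ± 1.1 in the knockout, and that of Cetn4 was 10.2% ± 0.24 and 9.3% ± 0.24 (SD, n = 3). The genotypes did not overlap in any of the 3 shares, which are parts of 1 sum and so do not give 3 separate results. The shares also depend on the transcript lengths taken, 2981 bases for Cetn4 against 1286 for Cetn2 and 1226 for Cetn3. Which transcripts were in use was not tested. The sum itself was 383 ± 24.3 CPM per kilobase in WT and 295 ± 5.72 in the knockout.

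**Figure D2:**
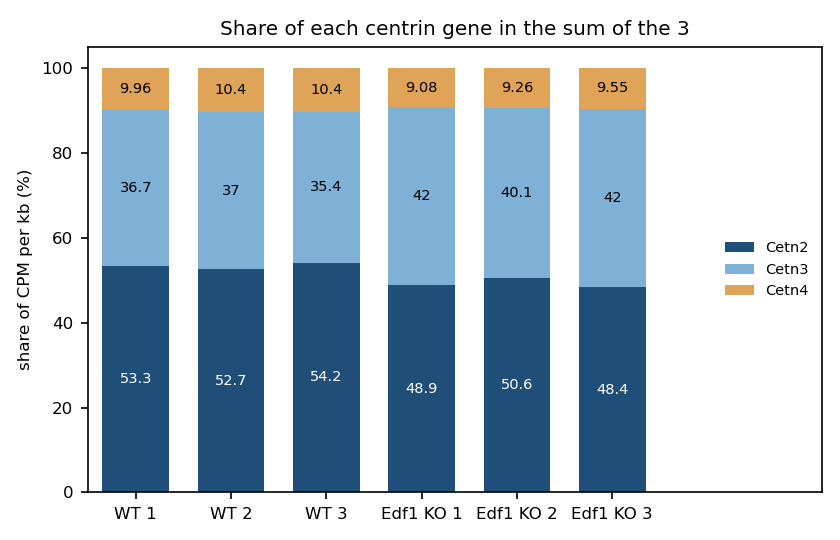
Share of each centrin gene (percent, vertical axis) in the sum of CPM per kilobase of Cetn2, Cetn3 and Cetn4, 1 bar per library. Cetn3 takes 35.4% to 37.0% in the WT bars and 40.1% to 42.0% in the knockout bars.

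Whether pairs of genes differed in their change was tested on the difference of their log2 CPM in each library. Cetn2 minus Cetn3 was 0.61, 0.58 and 0.68 in WT, against 0.29, 0.40 and 0.27 in the knockout, a change of -0.30. The genotypes did not overlap, and the exact two-sided permutation test gave p = 0.1, the smallest that 3 against 3 libraries allow, or 0.3 adjusted over the 3 pairs compared. Cetn4 minus Cetn2 changed by -0.024, from -1.17 ± 0.038 to -1.19 ± 0.057 (SD, n = 3; exact permutation p = 0.6), with overlapping values. Cep131 minus Pcm1 changed by -0.21, from -2.89 ± 0.29 to -3.10 ± 0.108 (exact permutation p = 0.5), and by -0.049 without WT replicate 2.

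The 2 genes of centrin-binding proteins moved in opposite directions. POC5 binds centrins through repeats and is part of the inner scaffold of the centriole. Poc5 (chr13:96388294-96417737, plus strand) had 95.6, 104 and 95.6 CPM in WT, against 59.6, 59.0 and 56.6 CPM in the knockout. The gap between the genotypes was wider than the spread within either. Its log2 fold change of -0.75 with SE 0.058 (edgeR, adjusted p = 2.00e-06), a fall of 40.6%, was the lowest of the 9 genes and stayed between -0.80 and -0.71 in all alternatives. Exons of Ankdd1b on the opposite strand cover 25.7% of the exonic bases of Poc5, and no source says if strand was used in counting. Ankdd1b had at most 3 counts in any library.

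SFI1 is a long filament-like protein that binds many centrin molecules. Sfi1 (chr11:3131850-3193463, minus strand) had 33.04, 28.1 and 32.6 CPM in WT, against 37.3, 37.2 and 36.2 CPM in the knockout, where every library was above every WT library. Its log2 fold change was 0.23 with SE 0.076 (edgeR, adjusted p = 0.0410). Without WT replicate 2, the lowest library, the value was 0.17 (adjusted p-value 0.0560), and the call was also lost without any 1 of the knockout replicates (0.0868 to 0.118) and in DESeq2 (0.0501). Of the 31-base words in its transcripts, 9.59% also occur in transcripts of other genes, so part of its reads could have been assigned elsewhere.

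Of the 4 satellite genes among the 9, Cep131 and Ccdc13 fell most. CEP131 is a satellite protein that controls which proteins enter the cilium. Cep131 (chr11:120064430-120086827, minus strand) had 53.6, 60.4 and 52.1 CPM in WT, against 42.5, 41.8 and 41.5 CPM in the knockout. The knockout libraries differed from each other by less than 1 CPM and lay well under WT. The log2 fold change was -0.40 with SE 0.067 (edgeR, adjusted p = 0.000818).

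Ccdc13 (chr9:121797627-121839461, minus strand) encodes a satellite protein needed for cilium assembly. It had 34.8, 39.6 and 35.7 CPM in WT against 26.1, 24.6 and 26.3 CPM in the knockout. The ranges were well apart. Its log2 fold change was -0.51 with SE 0.076 (edgeR, adjusted p = 0.000322), and like Cep131 it passed in each alternative.

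OFD1 is found in satellites and at the distal end of centrioles, where it limits their length. Ofd1 (chrX:166390033-166440704, minus strand) had 28.0, 28.4 and 31.03 CPM in WT. It had 24.4, 25.0 and 24.4 CPM in the knockout, below WT in each case. The log2 fold change was -0.24 with SE 0.074 (edgeR, adjusted p = 0.0285). The call was lost without any 1 library other than WT replicate 2 (adjusted p-values 0.0508 to 0.109 by edgeR) and in DESeq2 (0.0502).

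Pcm1 (chr8:41239752-41332344, plus strand), the gene of the satellite scaffold, did not pass the test. Its WT values of 430, 355 and 447 CPM overlapped the knockout values of 364, 333 and 385 CPM, since WT replicate 2 lay below 2 of the knockout libraries. The log2 fold change was -0.19 with SE 0.078 (edgeR, adjusted p = 0.0955). Without WT replicate 2 it was -0.28 (edgeR, adjusted p = 0.000103). With another library left out instead, it was -0.24 to -0.12 (adjusted p-values 0.0975 to 0.317 by edgeR). After a correction of each library for its trend with GC content and transcript length it was -0.30 (adjusted p-value 2.55e-05 by edgeR). Pcm1 did not pass in 12 of the 15 alternatives.

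**Figure D3:**
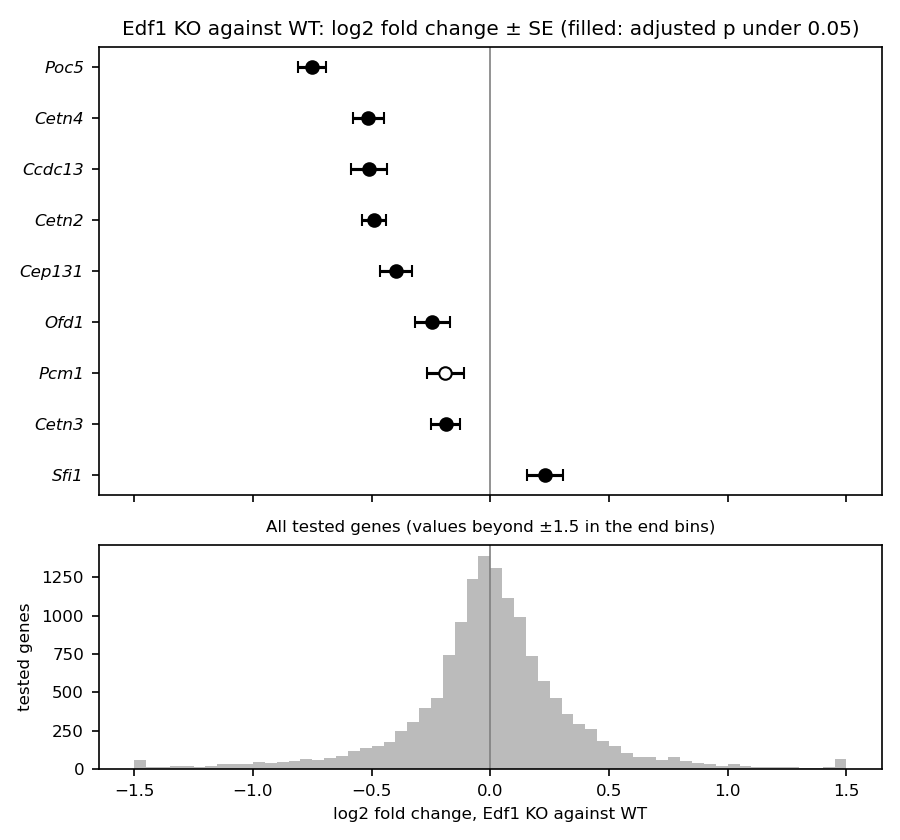
Upper panel, log2 fold change of knockout against WT with its standard error for the 9 genes, filled where the adjusted p-value was under 0.05. Lower panel, a histogram of the same quantity over all 14243 tested genes, whose centre is at 0 while 8 of the 9 genes lie to its left.

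WT replicate 2 also had the lowest total count, and of the WT libraries it deviated most by transcript length. Across 14106 tested genes of known length, its deviation from the WT mean in log2 CPM fell with length (Spearman's rho across genes -0.489), with a median of 0.098 in the shortest 20% of genes and -0.133 in the longest 20%. In WT replicates 1 and 3 rho was 0.324 and 0.410, and in the knockout libraries -0.116 to 0.180. With GC content the deviation of WT replicate 2 rose (rho 0.266). There WT replicates 1 and 3 had -0.115 and -0.261, and the knockout libraries -0.093 to 0.180. By GC content WT replicate 3 thus deviated about as much, in the other direction. Deviations from the mean of a genotype cancel within each gene, so some opposite signs follow by construction. Genes are not independent replicates, so these are descriptions. Pcm1, with the longest transcript of the 9 genes at 6624 bases, deviated by -0.20 in this library, and Sfi1 by -0.15. Cetn3, with the shortest at 1226 bases, deviated by 0.13. Poc5, at 5183 bases, went the other way from Pcm1, with 0.080. Cep131, at 3581 bases, also deviated by 0.13, although Sfi1 was of similar length at 3969 bases. The deviations of the 9 genes thus did not strictly follow their lengths. Without WT replicate 2, 8 of the 9 genes were lower and none was called higher. With another library left out instead, 5 or 6 were lower.

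**Figure D4:**
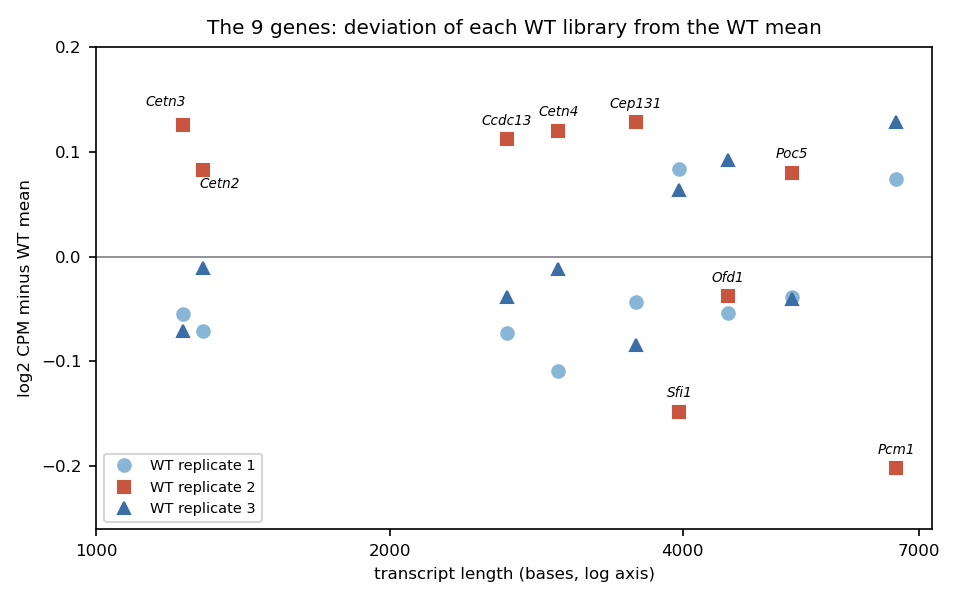
Deviation of log2 CPM from the mean of the 3 WT libraries (vertical axis) against transcript length in bases (horizontal log axis) for the 9 genes in each WT library. In WT replicate 2 (red squares) Pcm1, Sfi1 and Ofd1 lie below 0 and the other 6 genes above it.

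The order of the levels per kilobase was nearly the same in both genotypes. In WT it ran from Cetn2 (204 ± 11 CPM per kilobase) over Cetn3 (139 ± 10.7), Pcm1 (62 ± 7.36), Cetn4 (39.3 ± 3.15), Poc5 (19 ± 0.921), Cep131 (15.5 ± 1.23), Ccdc13 (13.9 ± 0.967) and Sfi1 (7.87 ± 0.685) to Ofd1 (6.54 ± 0.37; SD, n = 3 throughout). The WT ranges of Cep131 and Ccdc13 overlapped, and no other neighbours in this order did. In the knockout Poc5, at 11.3 ± 0.307, came after Cep131, at 11.7 ± 0.138. Ccdc13 (9.72 ± 0.362) and Sfi1 (9.29 ± 0.155) overlapped there, while in WT their ranges were apart. Cetn1, the centrin known from testis and retina, had 0 counts in each library.

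Of the 9 genes, 3 start back to back with another gene, and the values of the partners differed. Cetn2 and Nsdhl, which encodes an enzyme of cholesterol synthesis, start 146 bases apart on opposite strands. Nsdhl fell from 41.6 ± 2.13 to 31.6 ± 2.02 CPM (SD, n = 3), with a log2 fold change of -0.40 (edgeR, adjusted p = 0.00174). Cetn4 starts 154 bases from Bbs12, a gene of a chaperonin-like protein for the ciliary BBSome complex. Bbs12 had 17.8 ± 2.03 CPM in WT and 20.1 ± 1.80 in the knockout, and its log2 fold change of 0.18 did not pass the test (edgeR, adjusted p = 0.226). Ofd1 starts 130 bases from Trappc2, a gene of a vesicle tethering complex, which had a log2 fold change of 0.042 (edgeR, adjusted p = 0.683). Since no source states the use of strand, reads from overlapping exons cannot be assigned with certainty. Exons overlap by 32 bases for Cetn4 and Bbs12 and by 131 bases for Ofd1 and Trappc2. Antisense genes also cover 8.67% of the exonic bases of Cetn3 and 5.94% of those of Ccdc13.

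Other genes of the same structures were then examined in 3 lists. The list of centriole core genes holds inner scaffold and distal centriole genes, of which 9 of 10 were tested. In it 6 genes were lower and none higher, with a median log2 fold change of -0.33. Poc1a, which encodes a protein of the centriole wall, fell from 18.3 ± 2.04 to 10.1 ± 0.726 CPM. This was a log2 fold change of -0.87 with SE 0.11 (edgeR, adjusted p = 7.81e-05). Fam161a, whose product is a partner of POC5 in the inner scaffold, fell from 60.6 ± 2.75 to 36.2 ± 2.31 CPM, or -0.74 on the log2 scale (SE 0.067). Wdr90, which also belongs to the inner scaffold, fell from 84.9 ± 7.87 to 52.4 ± 4.27 CPM, or -0.69 on the log2 scale (SE 0.079; SD, n = 3 throughout). Poc1b, the paralog of Poc1a, had 25.5, 18.8 and 25.2 CPM in WT replicates 1, 2 and 3, and did not pass the test. Its knockout values were 21.3, 23.1 and 24.4 CPM. Of the 31-base words in its transcripts, 28.1% also occur in transcripts of other genes. Without WT replicate 2, 8 genes of this list were lower. With another library left out instead, 5 or 6 were lower.

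Of 21 other satellite genes, 11 were lower, none was higher and 10 did not pass, with a median log2 fold change of -0.25. Cep126 fell from 102 ± 0.414 to 59.9 ± 8.75 CPM. This was a log2 fold change of -0.76 with SE 0.086 (edgeR, adjusted p = 3.97e-05). Cfap53, whose product is also found in motile cilia, fell from 17.5 ± 0.578 to 10.3 ± 1.97 CPM, or -0.76 on the log2 scale (SE 0.12). Tbc1d31 fell from 83.9 ± 4.50 to 56.1 ± 0.905 CPM, or -0.58 on the log2 scale (SE 0.058; SD, n = 3 throughout). Among those that did not pass, Cep290 of the transition zone had 75.0, 56.8 and 85.0 CPM in WT replicates 1, 2 and 3. Its knockout values were 68.7, 62.5 and 87.1 CPM. Bbs4, which did not pass either, had a log2 fold change of -0.096. Without WT replicate 2, 13 genes of this list were lower. With another library left out instead, 10 to 12 were lower.

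Centrins also serve outside the centriole, in the XPC complex of DNA repair and the TREX-2 complex of mRNA export. Of 7 genes of these complexes, 2 were lower and none higher, beside 14.2% and 12.7% of all tested genes. Their median log2 fold change was -0.12. Sem1 fell from 117 ± 14.3 to 94.7 ± 3.98 CPM (SD, n = 3), or -0.30 on the log2 scale (edgeR, adjusted p = 0.0129). Without knockout replicate 1 or without knockout replicate 2, 0 of the 7 were called, and without WT replicate 1 or knockout replicate 3 the count was 1. Xpc itself had 41.8 ± 1.25 and 40.8 ± 3.45 CPM.

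**Figure D5:**
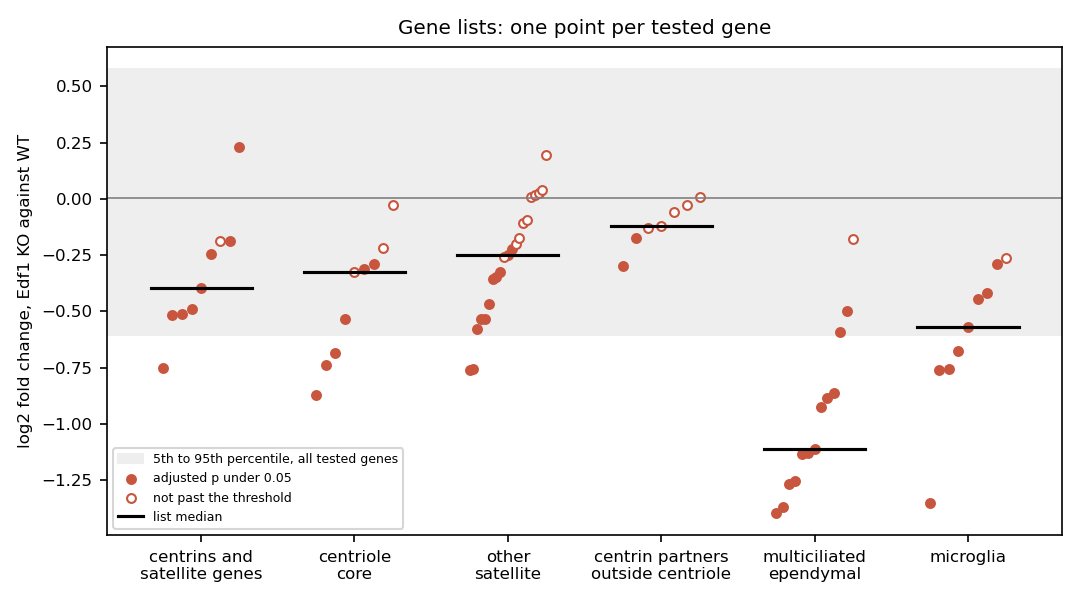
Log2 fold change of knockout against WT (vertical axis) for each tested gene of 6 lists, filled where the adjusted p-value was under 0.05, with list medians as black bars and the band from the 5th to the 95th percentile of all tested genes (-0.60 to 0.58) in grey. The medians are -0.40 for the 9 genes, -0.33, -0.25 and -0.12 for the 3 related lists, -1.11 for multiciliated ependymal markers and -0.57 for microglia markers.

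Markers of cell types moved beside these genes. Of the 13 multiciliated ependymal markers 12 were lower, and their summed level was 2276 to 2602 CPM in WT and 1273 to 1339 in the knockout. Of 9 microglia markers 8 were lower, with sums of 1766 to 1897 CPM in WT and 1172 to 1194 in the knockout. All 7 tested fibroblast and mural markers of 8 were higher, with sums of 564 to 605 and 726 to 812 CPM. The sums of 10 radial glia and astrocyte markers were 10840 to 11229 and 11829 to 12322 CPM, with 3 genes higher and 1 lower. Vim, which alone had 6019 to 6651 and 6753 to 7012 CPM of these sums, did not pass the test (edgeR, adjusted p = 0.0723), while Gfap fell by 0.42 on the log2 scale. The 10 markers of cycling cells, in which centrosomes are duplicated, had 3 genes higher and 5 lower and overlapping sums of 632 to 667 and 618 to 664 CPM. Neuron markers had 2 of 7 tested genes lower, beside 14.2% of all tested genes, with sums of 254 to 330 and 274 to 290 CPM. Map2, which did not pass the test, alone had 210 to 288 and 233 to 250 CPM of these sums. Dcx, 1 of the 2 lower genes, had only 4 to 20 counts per library. In the oligodendrocyte lineage 1 of 6 tested genes was higher (120 to 131 and 131 to 142 CPM), and in the choroid plexus list 1 of 5 (106 to 133 and 119 to 141 CPM). Beside these counts, 12.7% of all tested genes were higher. Of 5 endothelial markers only Kdr had enough counts to be tested and was higher, with sums of 35.4 to 40.8 and 125 to 130 CPM. No marker of these lists was at 0 in all libraries, but some were close to it and were not tested. Per library, Pecam1 had 2 to 5 counts, Slc17a6 0 to 5, Mog 0 to 8 and Kl 1 to 8. Cldn5 had 1 count in knockout replicate 3 and 0 in each other library. Since Cetn2 and Ofd1 are X-linked, 4 Y-linked genes were also summed, giving 243 to 291 CPM in WT and 292 to 329 in the knockout. Of the 4, 2 were higher, Eif2s3y (log2 fold change 0.41) and Kdm5d (0.18), while Ddx3y (0.040) and Uty (0.12) did not pass the test. Xist, also listed, had no row in the count table. The part of these shifts in the changes of the 9 genes was not tested.

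The genes most like Cetn2, Cetn4 and Pcm1 were found by Pearson correlation of log2 CPM over the 6 libraries, among 11013 other genes. For Cetn2 they were Tyrobp (r = 0.9997), Prkaca (0.9994) and Zcchc12 (0.9991). For Cetn4 they were Tmem131l (0.9992), Mpp1 (0.9988) and Cd180 (0.9986). For Pcm1 they were Dync2h1 (0.9986), Cntrl (0.9912) and S1pr1 (0.9897). A high correlation did not mean a change of like size: Prkaca had a log2 fold change of -0.22 beside -0.49 for Cetn2, and S1pr1 had -0.046 beside -0.19 for Pcm1. The 6 points share their 2 genotypes, and for Pcm1 also the low value of WT replicate 2. Dync2h1 and Cntrl had log2 fold changes of -0.20 each, did not pass the test, and like Pcm1 passed without WT replicate 2 (-0.29 and -0.30, adjusted p-values 9.99e-05 and 0.00110 by edgeR).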

How the data were processed

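RNA was sequenced in 6 libraries made with an mRNA kit, per the labels' protocols. The authors deposited whole-number read counts per gene symbol, 1 column per library, with 0 unused columns. The submitters' processing notes list FastQC 0.11.2, cutadapt 1.11, HISAT2 2.1.0 and the build GRCm38. The counting program, annotation, strandedness and treatment of reads that map to several places are not given in the sources used here. Positions, transcript lengths, exon overlaps and shared 31-base words came from GENCODE M21 on the same build, with a length for 99.04% of tested genes.

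Counts were tested in R 4.3.3 with edgeR 4.0.16 (filterByExpr, TMM factors of 0.9851 to 1.007, quasi-likelihood test of knockout against WT, no covariate, adjusted p-value under 0.05). CPM use TMM-scaled totals, and log2 CPM a prior count of 2. Standard errors were derived from the log2 fold change and its F statistic. The fits were checked on simulated counts. Replicates of a genotype differed by more than sampling noise (chi-square per gene 3.04 to 9.89).

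The 9 genes, the gene lists and the rule for named genes were chosen with earlier results of these data known. The rule named Edf1, the 9 genes, in each related list up to 3 called genes of largest change without overlap, and 3 genes most like each of Cetn2, Cetn4 and Pcm1. A gene that this rule names is not reported here. Poc1b, Cep290, Bbs4, Xpc, the back-to-back neighbours, the motifs and the trends with length and GC content were chosen after their values or sequences were seen. Alternatives were DESeq2 1.42.0 and its size factors, limma 3.58.1 (voom), library size alone, other filters (none, or a mean of 50 counts), a threshold of 0.01, the replicate number as a block, a correction for GC content and length (splines with 4 degrees of freedom) and each library left out in turn.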

Additional observations from a re-analysis of the deposited data

How the results depend on the processing

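Cetn2, Cetn4, Poc5, Cep131 and Ccdc13 kept their direction and passed the threshold in all 15 alternatives. None of the 9 genes reversed in any of them. The count of lower genes among the 9 was 5 to 8 over all alternatives (7 as reported). The count of higher genes, which is Sfi1 alone, was 0 in DESeq2 and at a threshold of 0.01, and 0 to 1 when 1 library was left out. Among genes of centrin complexes outside the centriole, 1 was lower without the low-count filter, 1 in DESeq2, 0 at the threshold of 0.01, and 0 to 3 when 1 library was left out (2 as reported). Of all tested genes, 3833 changed as reported, 2213 at the threshold of 0.01, 4651 after the correction for GC content and length, and 2658 to 4340 with 1 library left out. The causes were not tested, apart from the stricter threshold, which calls fewer genes by construction.

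With a replicate block in the fit, 4065 genes changed and 8 of the 9 were lower, with Pcm1 at -0.18 (adjusted p-value 0.01 by edgeR). Same-numbered libraries of the genotypes deviated together with correlations of only 0.0693, 0.0604 and 0.0372, so no pairing was assumed, although each library correlated best with its own number. The calls lost in 6 or 7 alternatives were those of Cetn3, Sfi1 and Ofd1. Counts per library were 362 to 1022 for Sfi1 and 365 to 744 for Ofd1, against 425 to 925 for Ccdc13, which kept its call.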
